A study of Mus musculus with 16 samples.

Results

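Doubling the concentration of genistein (G) from 60 to 120 µM was followed across all genes on the array in fibroblasts of mice with mucopolysaccharidosis type I (MPS I), a lysosomal storage disease in which glycosaminoglycans (GAGs) accumulate because the enzyme encoded by Idua is deficient. The comparison takes the 2 arrays labelled 120 µM G against the 2 arrays labelled 60 µM G, 4 of the 16 arrays of the series, over the 22203 transcript clusters with a gene symbol of the 22206 tested. All cells were primary skin fibroblasts grown out from tail explants of MPS I mice aged 6 to 8 weeks. The cells received 120 µM G for 24 h or 60 µM G for 24 h, both in 0.05% DMSO, and DMSO at 0.05% alone for 24 h was the matching control. The other arrays used beside them carried kaempferol (K) alone, or both flavonoids at a ratio of 1:1, each at 120 µM and at 60 µM in total, for 24 h, also labelled as in 0.05% DMSO. A group with 0.1% DMSO alone entered the fit as well. Every group had 2 arrays, which the labels call biological replicates. Nothing states that they came from separate mice, so the p values measure the spread between these arrays, which may be technical. The allele of the mice and whether all groups came from 1 culture are not stated in the sources read, and no cells of healthy mice were analysed here, so every value below holds for MPS I cells alone.

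G is an isoflavone of soy. It inhibits protein tyrosine kinases and DNA topoisomerase II, binds estrogen receptors and lowers the synthesis of GAGs, for which it has been studied in mucopolysaccharidoses. Growth factor receptors of the tyrosine kinase family signal through ERK to the immediate early genes, and cells in G2 and mitosis express a shared set of mitotic genes. Both sets were therefore followed along with stress, matrix, lipid and lysosomal genes.

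The values are log2 signals, on which a difference of 1 is a doubling. Medians of the transcript clusters were 6.54 to 6.63 on the 16 arrays, and the medians of the 5222 negative control probe sets were 6.47 to 6.83. Between 22.9% and 27.1% of the clusters per array exceeded the 95th percentile of those controls. The correlation between replicate arrays over all clusters was 0.9958 at 120 µM G and 0.9957 at 60 µM G. A group whose arrays both lay no higher than the median of the negative controls is called not well above background here, and a fold change against it is given as a bound. Of 14 fibroblast markers, 10 exceeded that percentile on all 4 G arrays, and Pdgfra, Lum, Fap and Twist1 did not. None of the markers of keratinocytes (10 genes), endothelium (8), leukocytes (9), melanocytes (6), Schwann cells (6), skeletal muscle (8), pericytes (6) or adipocytes (6) did so on all 4. Among these, Notch3 of the pericyte list rose (at least 1.29-fold, since it was not well above background at 60 µM G) and Mlana of the melanocyte list fell (-1.14), with adjusted p of 0.217 and 0.0899 without 60 µM G replicate 1. Idua had 7.73 and 7.69 at 120 µM G, against 7.64 and 7.72 at 60 µM G (log2 difference 0.03, SE 0.14, adjusted p = 0.95). None of the 12 reference genes passed the test in either direction. In bulk RNA, fewer cells of a type and less RNA per cell cannot be told apart.

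The higher dose changed 786 transcript clusters beyond the replicate spread, 3.54% of those tested. In limma's moderated test with Benjamini-Hochberg adjustment over all 22206 clusters, 348 rose (1.57%) and 438 fell (1.97%) at an adjusted p under 0.05, which covers 780 gene symbols. The median log2 difference over all clusters was -0.00124, and the median SE of 0.187 gave a 95% interval of 0.402 to either side. Of the genes called, 99 rose more than 2-fold and 173 fell below 0.5-fold. The dimmer dose was not well above background for 27 of the genes that rose and 26 of those that fell, and for 75 genes called neither dose was. By size alone, without a test, 2161 clusters (9.73%) had a fold change above 1.3 and 1255 (5.65%) one below 0.7. On the log2 scale 0.7 lies further from no change than 1.3, so these counts do not compare rises with falls. With 2 arrays per dose the counts depended on single arrays: leaving out 1 array left 150 rises without 60 µM G replicate 1, 120 without 60 µM G replicate 2, 99 without 120 µM G replicate 1 and 178 without 120 µM G replicate 2. The falls numbered 229 or 232 without a 60 µM array or 120 µM G replicate 1, and 250 without 120 µM G replicate 2. Of the 180 genes called in this dose step that were followed singly, 83 stayed called whichever array was left out. The adjusted p given below for a gene without an array is the highest of the 4. List counts of the dose step below stand beside rises in 1.57% and falls in 1.97% of all clusters. For list counts against 0.05% DMSO these shares were 3.84% and 4.49% at 60 µM G, and 7.94% and 7.8% at 120 µM G.

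**Figure D1:**
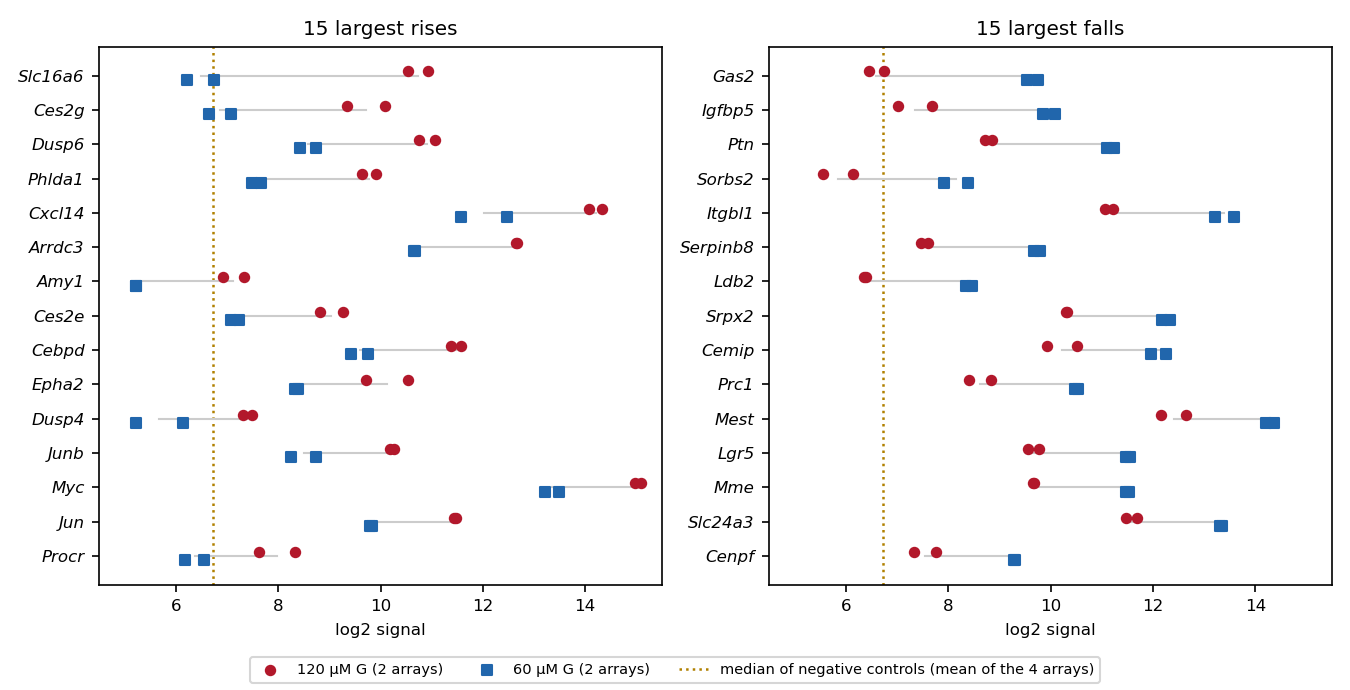
Log2 signals on the 2 arrays of 120 µM G (red circles) and the 2 arrays of 60 µM G (blue squares) for the 15 largest rises and the 15 largest falls, with the grey line joining the group means and the dotted line at the median of the negative controls. The doses overlapped for none of the 30 genes, which is no further support, since large called changes on these same arrays were the ground for choosing them. Slc16a6 and Gas2 had the widest gaps.

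Slc16a6 and Ces2g had the largest rises among the named genes. Slc16a6, a member of the monocarboxylate transporter family, had 10.53 and 10.92 at 120 µM G, against 6.23 and 6.74 at 60 µM G. That is a fold change of 18.9 (log2 difference 4.24, SE 0.38, adjusted p = 8.5e-05), and only 1 of the 2 arrays at 60 µM lay above the median of the negative controls. Ces2g, a carboxylesterase of the family that hydrolyses drugs and lipid esters, had 9.34 and 10.09 at 120 µM G, against 7.08 and 6.65 at 60 µM G (7.2-fold, adjusted p = 0.00011), with 1 of the 2 arrays at 60 µM above the median of the negative controls. Its relative Ces2e rose 3.68-fold. Arrdc3, an alpha-arrestin that sorts membrane receptors, had 12.66 and 12.68 at 120 µM G, against 10.68 and 10.65 at 60 µM G (4.01-fold, adjusted p = 0.00023), and Txnip, the alpha-arrestin that restrains glucose uptake and binds thioredoxin, rose 1.93-fold (adjusted p = 0.0013). Cxcl14, a chemokine made by fibroblasts and epithelia, had 14.08 and 14.32 at 120 µM G, against 12.48 and 11.58 at 60 µM G (4.52-fold). Amy1, an amylase, was not well above background at 60 µM G (5.21 and 5.22) and had 6.91 and 7.34 at 120 µM G, at least 1.32-fold higher (adjusted p = 0.00016). All of these stayed called without any 1 array. Among lists, 4 of 36 conjugating enzymes and carboxylesterases rose (Ces2g, Ces2e, Ces2b and Dcxr) and 1 fell (Aldh1a1), and 3 of 19 MLX regulators and alpha-arrestins rose and 1 fell. Ces2b was not well above background at either dose. The calls of Dcxr, Aldh1a1 and Mxd1, a riser of the MLX list, were lost when single arrays were left out.

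Mitotic genes made up the list with the highest share of calls, the G2/M and mitosis list. Of its 39 measured genes, 33 fell and 1 rose, with a median log2 difference of -1.11, beside 1.97% and 1.57% of all clusters and a median of -0.00124. Prc1, which bundles the microtubules of the central spindle, had 8.83 and 8.40 at 120 µM G, against 10.53 and 10.47 at 60 µM G (0.27-fold, log2 difference -1.89, SE 0.20, adjusted p = 0.00018). Cenpf, a kinetochore protein of G2 and mitosis, had 7.76 and 7.33 at 120 µM G, against 9.30 and 9.28 at 60 µM G (0.299-fold, adjusted p = 8.5e-05). Cdc20, the activator of the anaphase-promoting complex, had 8.76 and 8.44 at 120 µM G, against 10.65 and 10.02 at 60 µM G (0.3-fold, adjusted p = 0.0012). Both arrays at the higher dose lay below both at the lower for each of these genes, which were named for their large changes on these arrays. Ccnb1, the cyclin B1 that activates Cdk1 at mitotic entry, had 11.27 and 11.07 at 120 µM G, against 12.62 and 12.75 at 60 µM G (0.349-fold, adjusted p = 8.5e-05). Cdk1 itself had 10.83 and 10.35 at 120 µM G, against 12.00 and 11.74 at 60 µM G (0.412-fold). Ube2c, the ubiquitin-conjugating enzyme that works with the anaphase-promoting complex, fell to 0.378-fold and Kif20a, a kinesin of cytokinesis, to 0.346-fold. Plk1 and Aurkb, mitotic kinases, and Mki67, the proliferation antigen Ki-67, were picked from the list after their values were seen and had log2 differences of -1.48, -1.46 and -1.07. Foxm1, a transcription factor of G2 genes picked in the same way, had a difference of -0.74, with an adjusted p of 0.0899 without 60 µM G replicate 1. The riser was Pttg1, securin (0.58), whose call was lost whichever array was left out, and Cdc25c, Kif4, Top2a, Ndc80 and Ect2 did not pass. Without an array, 24 to 30 of the 39 genes fell.

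Many mitotic promoters carry a cell cycle homology region (CHR) next to CCAAT boxes, through which the DREAM complex and B-MYB with FOXM1 control them. The 150 bases before the start of the 4 mitotic genes that fell furthest among those holding both motifs there are shown for the reader to see this arrangement, from RefSeq on GRCm38.p6, 5′ to 3′ along the gene, with CHR (TTTGAA or TTCGAA) and CCAAT matches on either strand in capitals.
Prc1 (chr7:80294326-80294475, plus strand): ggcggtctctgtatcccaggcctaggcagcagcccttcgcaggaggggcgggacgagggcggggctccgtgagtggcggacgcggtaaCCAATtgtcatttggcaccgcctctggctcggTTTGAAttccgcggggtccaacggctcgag
Cdc20 (chr4:118437344-118437493, minus strand): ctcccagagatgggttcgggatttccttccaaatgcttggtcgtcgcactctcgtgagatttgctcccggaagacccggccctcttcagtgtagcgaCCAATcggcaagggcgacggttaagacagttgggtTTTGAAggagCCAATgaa
Ube2c (chr2:164769779-164769928, plus strand): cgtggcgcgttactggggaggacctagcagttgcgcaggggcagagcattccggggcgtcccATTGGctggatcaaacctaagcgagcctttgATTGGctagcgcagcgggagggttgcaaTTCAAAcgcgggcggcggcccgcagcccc
Cdk1 (chr10:69352913-69353062, minus strand): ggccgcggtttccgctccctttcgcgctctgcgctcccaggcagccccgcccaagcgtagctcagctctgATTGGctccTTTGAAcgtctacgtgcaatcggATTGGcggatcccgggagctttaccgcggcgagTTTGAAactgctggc
Over windows from 250 bases before to 50 after the start, both strands read, 24 of the 35 windows of 33 listed mitotic genes held both motifs (68.6%), beside 7.52% of all 32851 windows. For the genes that fell, 20 of 29 windows of 28 genes did (69%). Only 7 of these 28 genes held both within the 150 bases printed. Windows of 32 replication genes held CHR in 16.2%, beside 19.2% of all windows, and the E2F motif (TTT, then C or G, then GCGC) in 27%, beside 0.813% of all. A match says only that the letters are there.

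Replication genes had a smaller share of calls in the dose step than mitotic genes. Of 40 genes for DNA replication and nucleotide supply, 6 had fallen and 0 had risen at 60 µM G against 0.05% DMSO (beside 4.49% falls of all clusters). At 120 µM G 19 had fallen and 1 had risen (beside 7.8% and 7.94%). Between the doses 3 fell and 0 rose, beside 1.97% and 1.57% of all clusters, with a median of -0.28. The 3 were Uhrf1, which maintains DNA methylation at forks (log2 difference -0.87), Mcm6, a subunit of the replicative helicase (-0.71), and Prim2, a primase subunit (-0.54). These 3 calls were fragile, with adjusted p of 0.163 for Uhrf1 and 0.244 for Mcm6 without 120 µM G replicate 2, and 0.241 for Prim2 without 60 µM G replicate 1. Without an array, 0 to 4 of the 40 genes fell. Of 22 G1 genes, Cdkn2c, the inhibitor p18 of CDK4 and CDK6, fell by 0.98, with 10.65 and 10.61 at 120 µM G and 11.50 and 11.71 at 60 µM G. Ccne1, cyclin E1, fell by 0.74, but had an adjusted p of 0.168 without 120 µM G replicate 2. Among 29 genes of the DNA damage response 3 fell. Fanci, of the Fanconi anaemia pathway, had 7.63 and 7.12 at 120 µM G, against 8.45 and 8.86 at 60 µM G (0.413-fold, adjusted p = 0.0029), and was the one of the 3 that stayed called without any array. Chek1, a checkpoint kinase, and Blm, a helicase, had differences of -0.92 and -0.79, with adjusted p of 0.0535 and 0.166 without 120 µM G replicate 2.

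Of 27 replication-dependent histone genes, 7 fell and none rose in the dose step (median -0.65), while 19 had already fallen at 60 µM G against 0.05% DMSO (median -0.91, beside 4.49% of all clusters) and 22 had fallen at 120 µM G (median -1.68, beside 7.8%). Hist2h3b, a gene of histone H3, had 14.09 and 13.44 at 120 µM G, against 15.17 and 14.79 at 60 µM G (0.431-fold, adjusted p = 0.0029). The arrays of either dose differed from each other in this list. Its median signal was 12.06 and 11.79 on the 120 µM G arrays, and 12.6 and 12.03 on the 60 µM G arrays. The count of 7 falls therefore depended strongly on single arrays of both doses. Histone genes are near-identical copies, so signals of single members may be shared.

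Most p53 targets had moved at the lower dose. At 60 µM G, 21 of 31 had risen against 0.05% DMSO (beside 3.84% of all clusters) and none had fallen. In the further step 5 rose and 1 fell, with a median of 0.38. Pmaip1, the pro-apoptotic NOXA, had 7.65 and 8.07 in 0.05% DMSO, 10.26 and 10.58 at 60 µM G and 11.97 and 11.78 at 120 µM G. The dose step was 2.74-fold (adjusted p = 0.0023). Plk2, a polo-like kinase induced by stress, had 11.77 and 11.87 in 0.05% DMSO, 11.83 and 11.72 at 60 µM G and 13.31 and 13.45 at 120 µM G, and it rose 3.04-fold in the dose step with no change called at 60 µM G (adjusted p = 0.91). Gadd45a and Btg2, which slow the cycle after stress, rose 2.71-fold and 2.48-fold. The other riser, Aen, had a log2 difference of 0.53, and Ptprv (-0.63) was not well above background at either dose. Without any 1 array, 4 of the 31 rose and none fell.

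**Figure D2:**
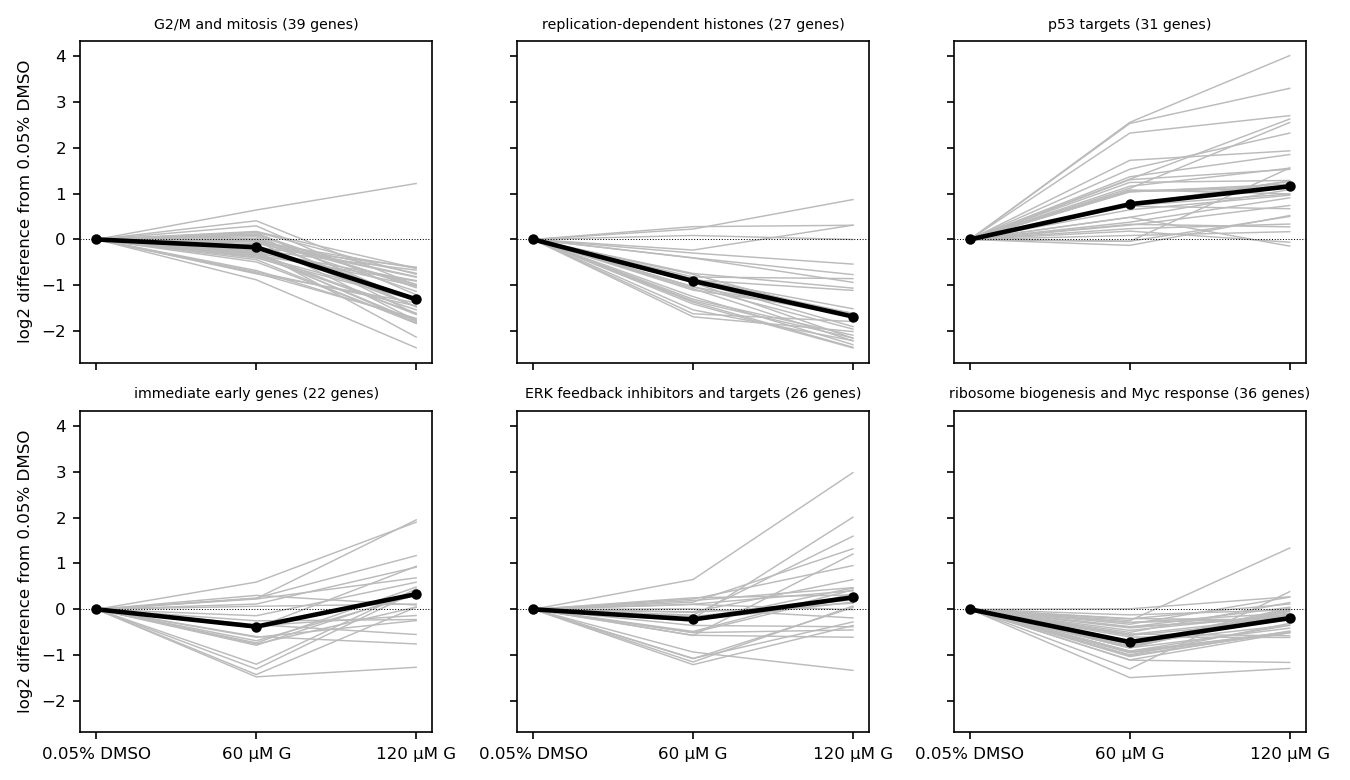
Log2 difference from the mean of 0.05% DMSO at 0.05% DMSO, 60 µM G and 120 µM G for each measured gene of 6 lists (grey lines), with the list's median in black. The mitotic median was -0.17 at 60 µM G and -1.31 at 120 µM G, while the medians of the immediate early, ERK and ribosome lists were lowest at 60 µM G.

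Immediate early genes, the first transcription factors that growth factors and stress induce, were the list with the highest share of rises. Of 22 measured, 12 rose and none fell between the doses (median 0.81), beside 1.57% rises of all clusters. At 60 µM G, however, 9 had fallen and none had risen against 0.05% DMSO (median -0.38), beside 4.49% falls. At 120 µM G, 7 were above 0.05% DMSO and 2 below (median 0.33, beside 7.94% and 7.8% of all clusters). Jun had 11.02 and 11.01 in 0.05% DMSO, 9.80 and 9.83 at 60 µM G and 11.48 and 11.43 at 120 µM G, a 3.12-fold dose step (adjusted p = 0.00045). Myc, the growth-promoting transcription factor, had 14.43 and 14.87 in 0.05% DMSO, 13.49 and 13.21 at 60 µM G and 15.09 and 14.98 at 120 µM G. Its dose step was 3.22-fold (adjusted p = 0.00081), and neither gene differed from 0.05% DMSO at 120 µM G by the test (adjusted p = 0.15 for Jun and 0.29 for Myc). Junb rose 3.29-fold and Egr2 2.33-fold, with 10.26 and 10.18 for Junb at 120 µM G against 8.75 and 8.26 at 60 µM G, and 9.13 and 8.81 for Egr2 at 120 µM G against 7.83 and 7.67 at 60 µM G. Of genes picked after their values were seen, Ier2 had a log2 difference of 1.00 (adjusted p = 0.0025), and Fos, the partner of Jun in AP-1, one of 1.31, with an adjusted p of 0.131 without 120 µM G replicate 1. Nr4a1 (1.14), Nr4a2 (1.47) and Maff (1.34, with 1 of 2 arrays at 60 µM G above the median of the negative controls) lost their calls without 120 µM G replicate 1, with adjusted p of 0.065, 0.102 and 0.131. The risers of the list numbered 7 without 60 µM G replicate 1, 7 without 60 µM G replicate 2, 5 without 120 µM G replicate 1 and 10 without 120 µM G replicate 2.

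Serum response factor, encoded by Srf, drives several of these genes through CArG boxes. The stretches before the start of Egr2 and Srf are shown because they were the only 2 genes that rose, of the 10 with a promoter entry, to hold a CArG box within 150 bases, again from RefSeq on GRCm38.p6 and 5′ to 3′ along the gene, with matches to the CArG box on either strand in capitals. This motif was chosen after the data were seen, and a CArG box may contain a CCAAT.
Egr2 (chr10:67537416-67537565, plus strand): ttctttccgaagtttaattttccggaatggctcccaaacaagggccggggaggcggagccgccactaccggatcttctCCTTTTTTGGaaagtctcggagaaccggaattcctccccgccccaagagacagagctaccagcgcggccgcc
Srf (chr17:46556163-46556312, minus strand): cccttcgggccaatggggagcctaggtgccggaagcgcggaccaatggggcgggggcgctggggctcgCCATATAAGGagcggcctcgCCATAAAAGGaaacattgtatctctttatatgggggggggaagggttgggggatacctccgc
Of the 12 genes that rose, 10 had a window from 250 bases before to 50 after the start, and of these only Egr2 and Srf, 2 of 10, held a CArG box, beside 488 of 27025 genes with a window. Egr2 had 5 windows, 4 of them with a match, and Srf had 1. Srf itself had 10.75 and 10.80 at 120 µM G, against 10.09 and 9.84 at 60 µM G (1.75-fold, adjusted p = 0.035), and lost its call without any of the 4 arrays (0.197 without 60 µM G replicate 2).

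Feedback inhibitors and targets of ERK rose as well: 8 of 26, with none falling and a median of 0.72. At 60 µM G 4 had fallen and none had risen against 0.05% DMSO (median -0.22), beside 4.49% and 3.84% of all clusters. At 120 µM G 8 were above and 2 below 0.05% DMSO (median 0.26), beside 7.94% and 7.8%. Dusp6, the phosphatase that inactivates ERK in the cytoplasm and is itself induced by ERK, had 11.07 and 10.75 at 120 µM G, against 8.73 and 8.43 at 60 µM G (5.04-fold, log2 difference 2.33, SE 0.24, adjusted p = 0.00014). Phlda1, an ERK-induced gene, had 9.92 and 9.65 at 120 µM G, against 7.65 and 7.49 at 60 µM G (4.63-fold, adjusted p = 0.0022). Dusp4, the nuclear ERK phosphatase, was not well above background at 60 µM G (6.13 and 5.21) and had 7.48 and 7.31 at 120 µM G, at least 1.59-fold higher. Etv5, an ETS factor downstream of ERK picked after its value was seen, had 12.14 and 11.86 at 120 µM G, against 10.85 and 10.82 at 60 µM G (log2 difference 1.16, adjusted p = 0.00058). These 4 genes stayed called without any 1 array. Epha2, an ephrin receptor, had 10.55 and 9.72 at 120 µM G, against 8.39 and 8.32 at 60 µM G (3.43-fold, adjusted p = 0.022), but an adjusted p of 0.198 without 120 µM G replicate 1. Dusp10 (2.33-fold) reached 0.0744 without 120 µM G replicate 1, and Spry4, a receptor feedback inhibitor with a difference of 0.73, reached 0.229 without it. Without an array, 4 to 6 of the 26 rose, the fewest without 60 µM G replicate 1 or 120 µM G replicate 1.

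**Figure D3:**
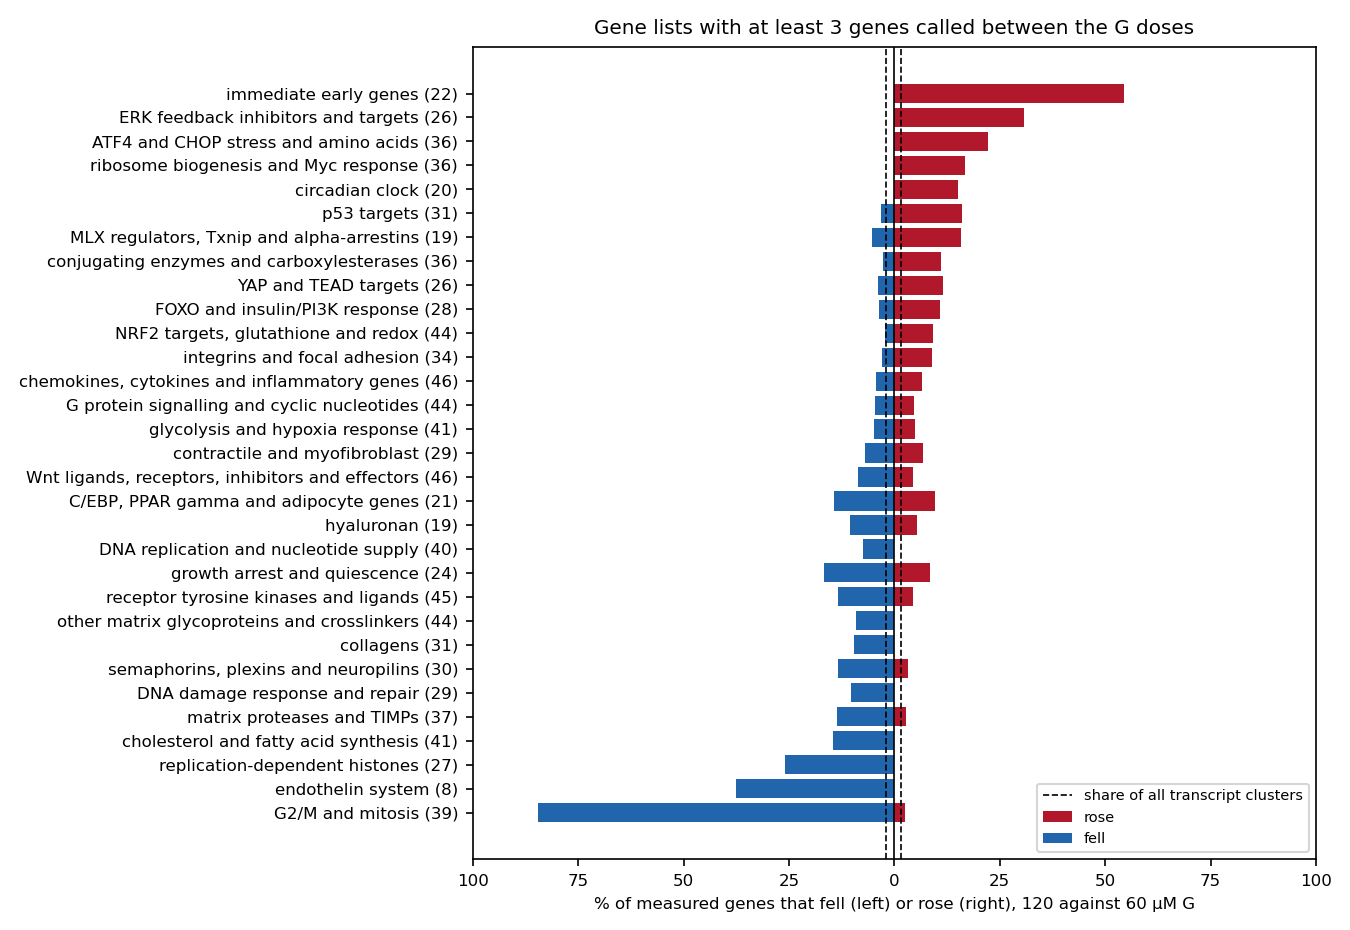
Share of the measured genes of each list (number in brackets) that rose (red, to the right) or fell (blue, to the left) at 120 against 60 µM G, for lists with at least 3 genes called, with dashed lines at the 1.57% and 1.97% of all clusters. The mitosis list stands at one end with 33 of 39 genes falling, and the immediate early list at the other with 12 of 22 rising.

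Stress and amino acid genes under ATF4 and CHOP rose in 8 of 36 cases with no fall (median 0.32), beside 1.57% rises of all clusters. Before that, 3 had risen and 13 had fallen at 60 µM G against 0.05% DMSO (median -0.33), beside 3.84% and 4.49% of all clusters. At 120 µM G 6 were above and 6 below 0.05% DMSO (median -0.16), beside 7.94% and 7.8%. Ddit3, which encodes CHOP, had 14.11 and 14.16 at 120 µM G, against 12.82 and 12.87 at 60 µM G (2.45-fold, adjusted p = 0.00018). Trib3, a pseudokinase induced by ATF4, rose 2.32-fold (adjusted p = 0.0023). Slc7a1, the transporter of arginine and lysine, had 10.54 and 10.66 in 0.05% DMSO, 8.99 and 9.10 at 60 µM G and 10.26 and 10.17 at 120 µM G (2.25-fold in the dose step, adjusted p = 0.00035). Slc7a5, a subunit of the LAT1 transporter of large neutral amino acids, rose 1.91-fold after a fall at 60 µM G (log2 difference -1.31). Ppp1r15a was not well above background at either dose, and Ddit4 (0.90) and Cebpb (0.76) lost their calls, with adjusted p of 0.141 without 60 µM G replicate 2 and 0.168 without 60 µM G replicate 1. Without an array 5 or 6 of the 36 rose, 5 without either 60 µM array.

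Ribosome biogenesis genes and targets of Myc were lower at 60 µM G. At 60 µM G 18 of 36 had fallen and none had risen (median -0.71), beside 4.49% falls of all clusters. In the dose step 6 rose and none fell (median 0.43), beside 1.57% rises of all clusters. At 120 µM G 1 was above and 4 below 0.05% DMSO (median -0.19), beside 7.94% and 7.8%. Odc1, the first enzyme of polyamine synthesis and a Myc target, had 13.99 and 13.90 at 120 µM G, against 12.52 and 12.20 at 60 µM G (3-fold, adjusted p = 0.0011). Myc and Odc1 stayed called without any array. Nop58, a core protein of box C/D small nucleolar particles (0.76), Rrp12 (0.83) and Noc2l (0.83), both of ribosome maturation, did not, with adjusted p of 0.0978 and 0.164 for Nop58 and Rrp12 without 60 µM G replicate 2 and 0.139 for Noc2l without 120 µM G replicate 1. The risers numbered 3 without 60 µM G replicate 1 and 2 without each other array.

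Several of the largest falls lay in genes for growth factor binding, secreted and cytoskeletal proteins. Gas2, a growth-arrest protein that links actin and microtubules, had 6.75 and 6.44 at 120 µM G, against 9.53 and 9.76 at 60 µM G (0.121-fold, log2 difference -3.05, SE 0.24, adjusted p = 3.7e-05), and only 1 of the 2 arrays at 120 µM lay above the median of the negative controls. Igfbp5, which binds insulin-like growth factors, had 7.01 and 7.69 at 120 µM G, against 9.86 and 10.09 at 60 µM G (0.162-fold, adjusted p = 0.00016). Ptn, the heparin-binding growth factor pleiotrophin, had 8.72 and 8.86 at 120 µM G, against 11.10 and 11.24 at 60 µM G (0.192-fold, adjusted p = 8.5e-05). For each of them the doses were far apart compared with the arrays of a dose, which their choice by size of change favours. Itgbl1, a protein with integrin-like repeats, had 11.22 and 11.06 at 120 µM G, against 13.22 and 13.58 at 60 µM G (0.209-fold). Srpx2, a secreted sushi-repeat protein, had 10.32 and 10.31 at 120 µM G, against 12.18 and 12.34 at 60 µM G (0.259-fold, adjusted p = 3.1e-05). Serpinb8, an intracellular protease inhibitor, had 7.60 and 7.47 at 120 µM G, against 9.68 and 9.78 at 60 µM G (0.218-fold). Ldb2, a cofactor of LIM-domain transcription factors, was not well above background at 120 µM G (6.35 and 6.39) and had 8.34 and 8.46 at 60 µM G, at least 3.2-fold lower at 120 µM G. Sorbs2, an adaptor of the actin cytoskeleton, was likewise at least 2.69-fold lower, but had an adjusted p of 0.0593 without 120 µM G replicate 1.

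Matrix lists fell in part. Of 44 matrix glycoproteins and crosslinkers 4 fell and none rose (median -0.27): Spp1, osteopontin (0.322-fold, adjusted p = 0.0011), Loxl1, an elastin crosslinker (0.52-fold, adjusted p = 0.0019), Matn2 (log2 difference -1.01) and Mfap5 (-0.88). The calls of Matn2 and Mfap5 were lost, with adjusted p of 0.079 without 120 µM G replicate 1 and 0.116 without 60 µM G replicate 1. Of 31 collagens 3 fell (median -0.21), Col11a1 (-1.12), Col6a2 (-0.96) and Col6a3 (-0.88), and the 3 calls fell to 1 without 60 µM G replicate 2 and to 0 without any other array. Among 37 matrix proteases and their inhibitors 5 fell and 1 rose. Adamts1, which cleaves the proteoglycans versican and aggrecan, had 10.87 and 10.67 at 120 µM G, against 12.30 and 12.13 at 60 µM G (0.368-fold, adjusted p = 0.0016), Adam12 fell to 0.453-fold, and Mmp15, a membrane-bound matrix metalloproteinase, rose 2.29-fold. Tgfbi, a matrix protein induced by TGF-beta, had 7.00 and 6.77 at 120 µM G, against 8.37 and 8.06 at 60 µM G (0.398-fold). The fibroblast markers moved beside them, with 2 of 14 falling and a median of -0.26: Pdgfra (-0.76) and Thy1 (-0.62), with adjusted p of 0.159 and 0.222 without 60 µM G replicate 1. The summed signal of the 14 markers, as log2, was 18.77 to 18.86 at 120 µM G and 19.08 to 19.14 at 60 µM G. Its part in the matrix falls was not tested.

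Several genes for signalling ligands and receptors fell. In the Wnt list 4 of 46 fell and 2 rose. Axin2 had the largest rise (log2 difference 1.35), which depended on single arrays: it was 0.80 without 120 µM G replicate 1 and 1.90 without 120 µM G replicate 2. Lgr5, a receptor for R-spondins, had 9.56 and 9.77 at 120 µM G, against 11.56 and 11.48 at 60 µM G (0.276-fold, adjusted p = 0.00048), and its ligand Rspo2 fell to 0.307-fold (adjusted p = 0.00053). Both had fallen or lay lower at 60 µM G against 0.05% DMSO, by a log2 difference of -1.74 for Lgr5 (adjusted p = 0.00036) and -0.58 for Rspo2 (adjusted p = 0.1). Sfrp2 and Dkk2, secreted Wnt inhibitors, had log2 differences of -1.53 and -1.34, with adjusted p of 0.0587 without 60 µM G replicate 2 and 0.0633 without 60 µM G replicate 1. Of 45 receptor tyrosine kinase genes and ligands 6 fell and 2 rose, the largest fall being Ptn and one rise being Bdnf, the neurotrophin (1.93-fold, adjusted p = 0.0023). The 6 falls numbered 1 or 2 without any 1 array. Of 30 semaphorin genes 1 rose, Sema6a (0.80, adjusted p = 0.231 without 60 µM G replicate 1), and 4 fell, led by Sema3a (0.353-fold), which reached an adjusted p of 0.0524 without 120 µM G replicate 1, and Sema3f (0.438-fold), which stayed called. In the endothelin system 3 of 8 fell. Mme, the peptidase neprilysin that degrades endothelin, had 9.68 and 9.66 at 120 µM G, against 11.48 and 11.53 at 60 µM G (0.28-fold, adjusted p = 3.1e-05). The receptors Ednra (-0.77) and Ednrb (at least 1.06-fold lower, since it was not well above background at 120 µM G) lost their calls, with adjusted p of 0.238 without 120 µM G replicate 1 and 0.244 without 120 µM G replicate 2. Among cytokines Lif, a cytokine of the interleukin-6 family, had 8.87 and 8.69 at 120 µM G, against 7.10 and 7.38 at 60 µM G (2.91-fold, adjusted p = 0.00048), and Ptgs1, which makes prostaglandins, fell to 0.318-fold.

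Some genes of lipid synthesis fell. Of 41 genes for cholesterol and fatty acid synthesis 6 fell and none rose (median -0.38), while at 60 µM G 2 had risen and 2 had fallen (median -0.02). Elovl6, an elongase of fatty acids, had 12.95 and 13.09 at 120 µM G, against 14.04 and 14.29 at 60 µM G (0.451-fold, adjusted p = 0.00096). Elovl6 stayed called without any array, while Mvk (-0.86), Stard4 (-0.97) and Idi1 (-0.73) reached adjusted p of 0.0781, 0.131 and 0.229 without an array, 60 µM G replicate 1 for Mvk and Stard4 and 120 µM G replicate 1 for Idi1. The falls numbered 3 without 60 µM G replicate 2 and 2 without each other array. Pparg, the transcription factor of adipocytes, fell to 0.491-fold (adjusted p = 0.0031), and Cebpd, an early factor of the same pathway, rose 3.68-fold, with 11.38 and 11.56 at 120 µM G against 9.76 and 9.42 at 60 µM G.

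Few genes of GAG and lysosome biology were called in this step, in which 1.97% of all clusters fell and 1.57% rose. Whether any of these lists differed from those shares was not tested. Of 39 genes for heparan sulphate synthesis and core proteins 1 fell, Gpc6, a glypican (0.487-fold, adjusted p = 0.0034), and of 38 for chondroitin, dermatan and keratan sulphate 2 fell. Aspn, the small leucine-rich proteoglycan asporin, had 13.84 and 13.99 in 0.05% DMSO, 12.12 and 12.47 at 60 µM G and 10.40 and 10.76 at 120 µM G, log2 differences of -1.62 for the initial and -1.71 for the further 60 µM. Ogn, osteoglycin, was the other (log2 difference -0.89), with an adjusted p of 0.0887 without 120 µM G replicate 1. Among 19 hyaluronan genes Cemip, which depolymerises hyaluronan, had 10.51 and 9.93 at 120 µM G, against 11.96 and 12.26 at 60 µM G (0.269-fold, adjusted p = 0.00021), and Hmmr, a hyaluronan receptor that also acts at the spindle, fell to 0.528-fold. Of 12 enzymes whose loss causes a mucopolysaccharidosis, 1 rose: Hyal1, a lysosomal hyaluronidase, had 10.31 and 10.52 in 0.05% DMSO, 11.59 and 11.78 at 60 µM G and 12.56 and 12.53 at 120 µM G. Its dose step was 1.82-fold (adjusted p = 0.0072), with an adjusted p of 0.0655 without 60 µM G replicate 1. Of 40 other lysosomal hydrolases none was called in the dose step (limma, median -0.02), while 10 had risen at 60 µM G and 11 at 120 µM G against 0.05% DMSO, beside 3.84% and 7.94% of all clusters. Of 42 lysosomal membrane genes 14 had risen at 60 µM G, while at 120 µM G 20 had risen and 1 had fallen, beside the same shares of all clusters for rises, and 1 rose between the doses, Cd68, with 11.42 and 11.53 at 120 µM G against 10.29 and 10.29 at 60 µM G (2.27-fold, adjusted p = 0.0048). Of 39 autophagy genes 2 rose, Atg10 (0.62) and Atg101 (0.55), with adjusted p of 0.111 without 120 µM G replicate 1 and 0.168 without 60 µM G replicate 1. Lists of estrogen receptor and aryl hydrocarbon receptor targets, oxidative phosphorylation and interferon genes had no gene called, with medians of -0.03, -0.13, 0.04 and -0.04.

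Whether the further 60 µM acted like the initial 60 µM was tested as the difference between the 2 steps, the step to 120 µM G minus the step from 0.05% DMSO to 60 µM G. The 60 µM arrays enter both steps, so no agreement between the steps was computed. The difference passed the test for 216 clusters, 0.973% of all (115 positive and 101 negative), with a median SE of 0.324. Bcat1, which starts the breakdown of branched-chain amino acids, had 10.13 and 10.15 in 0.05% DMSO, 7.61 and 7.79 at 60 µM G and 8.84 and 8.53 at 120 µM G, a difference between the steps of 3.42 (adjusted p = 0.00057) that stayed called without any of the 6 arrays. Pdgfc, a platelet-derived growth factor, had 8.91 and 9.05 in 0.05% DMSO, 6.57 and 6.65 at 60 µM G and 7.65 and 7.09 at 120 µM G. At 60 µM G it was not well above background, so it was at least 4.77-fold lower there than in 0.05% DMSO, and it was at least 1.56-fold higher at 120 µM G than at 60 µM G, a step that missed the threshold (adjusted p = 0.082). The fitted difference between its steps (adjusted p = 0.0035) includes that dim level and has no well measured size. Serpinb8 was highest at 60 µM G, with 9.21 and 9.22 in 0.05% DMSO, 9.68 and 9.78 at 60 µM G and 7.60 and 7.47 at 120 µM G (-2.71, adjusted p = 0.004, and 0.0695 without 60 µM G replicate 2). For Cd80, a costimulatory molecule of immune cells, and Ano3, a membrane protein of the anoctamin family, the initial step was a rise (2.40 and 2.83) and the further step passed no test (-0.43 and 0.27). Cd80 was not well above background in 0.05% DMSO, and was at least 2.81-fold higher at 60 µM G. Their differences of -2.83 and -2.56 lost the call without 60 µM G replicate 2, with adjusted p of 0.117 and 0.116. Of the lists, ribosome biogenesis and Myc targets had 11 of 36 positive differences (median 1.16), beside 0.518% of all clusters, immediate early genes 7 of 22 (median 0.92) and ATF4 and CHOP genes 6 of 36 (median 0.74), each with no negative one. Mitotic genes had 8 of 39 negative differences and no positive one (median -0.91, beside 0.455%). Leaving out an array changed the 216 to between 24 (without 60 µM G replicate 2) and 204 (without 120 µM G replicate 2).

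**Figure D4:**
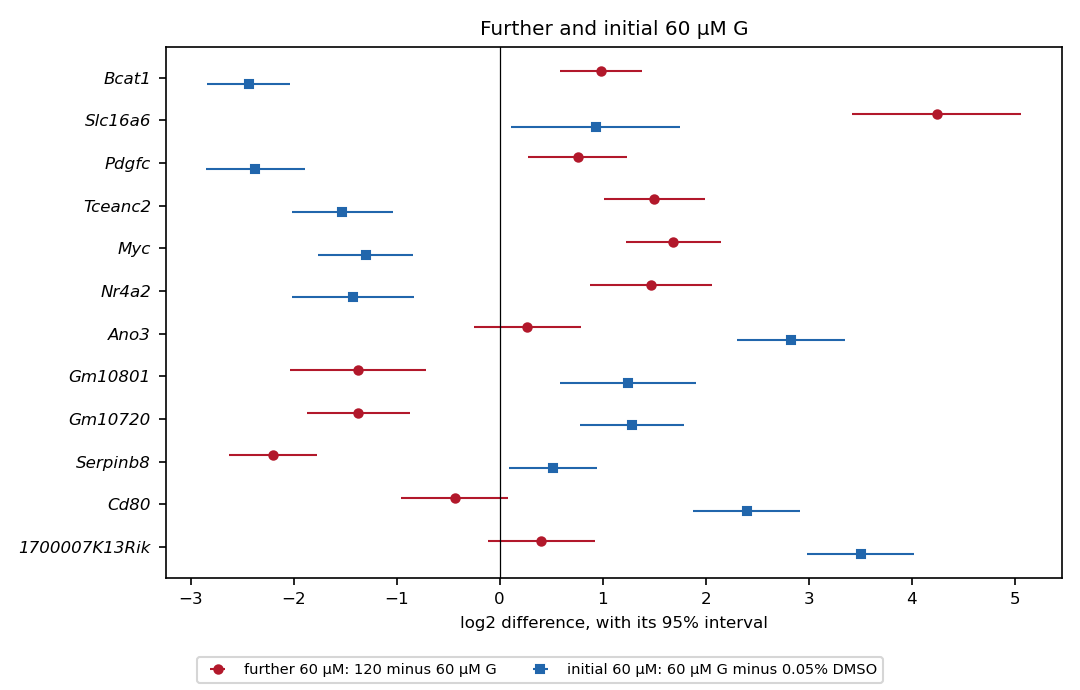
Log2 difference with its 95% interval for the further 60 µM (120 minus 60 µM G, red circles) and the initial 60 µM (60 µM G minus 0.05% DMSO, blue squares), for the 6 largest positive and the 6 largest negative differences between the steps. Bcat1, Tceanc2, Myc and Nr4a2 fell in the initial step and rose in the further one. The choice by largest difference favours such opposite directions, since the 60 µM arrays enter both steps with opposite sign. Of these genes only Bcat1 and Pdgfc kept the call of their difference whichever array was left out, and Pdgfc was not well above background at 60 µM G.

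The same doubling was available for K, a flavonol, and for the 1:1 mixture. G and K are flavonoids that differ in the carbon of the central ring that bears the phenol ring, and K has a further hydroxyl group. The doubling of K called 59 clusters (0.266%), 9 rises (0.0405%) and 50 falls (0.225%), and that of the mixture none in limma, with 1179 at an unadjusted p under 0.05, beside 3835 for G and 2138 for K. These counts alone do not compare the compounds. The dose steps of G and K differed by the test for 7 clusters (0.0315%), 4 higher (0.018%) and 3 lower (0.0135%) for G, and those of G and the mixture for 61 (0.275%), with a median 95% interval of 0.568 to either side. The dose step of Slc16a6 was 4.24 for G, -0.28 for K and 0.34 for the mixture, and the differences were 4.53 against K (adjusted p = 0.015) and 3.90 against the mixture (adjusted p = 0.016). Its arrays had 6.10 and 6.35 at 120 µM K and 6.07 and 6.94 at 60 µM K. It was not well above background at 120 µM K, and only 1 of the 2 arrays was above the median of the negative controls at 60 µM K, at either dose of the mixture and at 60 µM G, so the sizes of its other steps and of these differences are not well measured. Steap1, a membrane protein of the STEAP family, had a dose step of 1.32 for G and -0.52 for K, a difference of 1.84 (adjusted p = 0.015), and Txnip one of 0.95 for G and -0.44 for K, a difference of 1.39 (adjusted p = 0.018). Wisp2, a matricellular protein, differed the other way about: it had 11.42 and 11.62 at 120 µM K, against 13.46 and 13.36 at 60 µM K (-1.89), while the step of G was -0.27 (adjusted p = 0.37). Mme had dose steps of -1.84 for G and -0.44 for K (difference -1.40, adjusted p = 0.031).

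Most genes of the G dose step were not separated from K by the test. Dusp6 had a dose step of 2.33 for G and 0.88 for K, a difference of 1.46 with a 95% interval of 0.74 to 2.17 and an adjusted p of 0.13, and Ccnb1 had steps of -1.52 for G and -0.56 for K, a difference of -0.96 with an interval of -1.38 to -0.53 and an adjusted p of 0.11. Of the 39 mitotic genes none differed between G and K by limma's test over all clusters (median of the differences -0.58), and 7 differed between G and the mixture, all with the larger fall for G (median -1.01, beside 0.162% of all clusters). The median dose step of the mitotic genes was -1.11 for G, -0.59 for K and -0.15 for the mixture. Of the 22 immediate early genes 4 differed from the mixture, all higher for G (beside 0.113%), and none from K. Myc had steps of 1.69 for G, 0.10 for K and -0.36 for the mixture (difference from the mixture 2.05, adjusted p = 0.016), and Gas2 had steps of -3.05, -1.39 and -0.19 (difference from the mixture -2.85, adjusted p = 0.011). At 120 µM in total the mixture holds 60 µM of G, so the doses of G itself do not match there. None of the 7 differences from K, and none of the 6 largest in each direction from the mixture, kept its call in every fit that left out an array, and the highest adjusted p was 0.223 against K (Gm10720 without 60 µM K replicate 2) and 0.172 against the mixture (Ces2g without 60 µM mixture replicate 2).

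**Figure D5:**
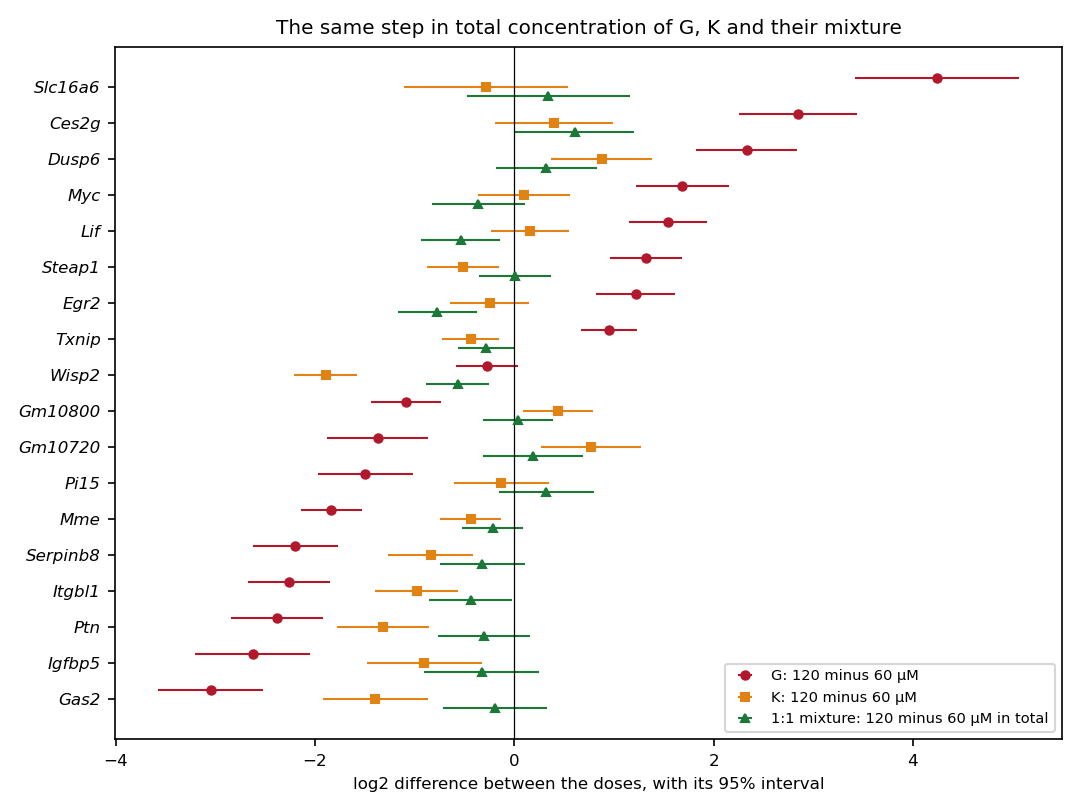
Log2 difference between 120 and 60 µM with its 95% interval for G (red circles), K (orange squares) and the 1:1 mixture (green triangles, total concentration), for the genes with the largest differences between these dose steps. The interval of Slc16a6 for G lies apart from those for K and the mixture, and Wisp2 is the gene where K moved most.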

How the data were processed

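RNA of 16 samples was hybridised to Clariom S mouse arrays. The authors used Transcriptome Analysis Console and Affymetrix Expression Console on the scans (versions and genome build not given in the sources used here), and deposited log2 signals that had passed RMA (background correction, quantile normalization, summarization), named sst-rma in the column names. The tables hold 28846 probe sets: 22206 annotated transcript clusters and 6640 controls. For a symbol with several clusters, the one with the highest mean signal stood for the gene.

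Groups were compared in R 4.3.3 by limma 3.58.1, fitting 8 group means over all 16 arrays in 1 fit (8 residual and 5.81 prior degrees of freedom), and p values were adjusted by Benjamini-Hochberg over all clusters. Genes with an adjusted p under 0.05 were called. The fit was tested on simulated data. Precision is limited by 2 arrays per group: the methods name 3 biological replicates, and each group here holds 2. The labels give 0.05% DMSO for every flavonoid group, while the study takes 0.1% DMSO as the control of the mixtures, so the mixture's solvent is not settled; dose steps within the mixture use neither control. The deposited fold changes of the authors' own comparisons were not used.

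Named were the 15 largest rises and falls with the brighter group above the median of the negative controls, up to 5 called genes per list, the 6 largest differences each way between steps, Idua, the reference genes and genes whose promoter is shown. A few further genes are marked as picked after their values were seen. The 55 gene lists, the 9 marker lists and the comparison itself were chosen with earlier results of these data known. The background rule and the settings for the levels against 0.05% DMSO and for single genes in the comparisons of steps were chosen after seeing the data. Alternatives covered filters on dim clusters, another normalization, centring, the prior, thresholds, the arrays fitted, a replicate block and leaving out each array.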

Additional observations from a re-analysis of the deposited data

Results flagged for a closer look

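The dose step of G differed from that of K by limma's test of the difference for 7 genes, which made these results stand out. The differences, G minus K on the log2 scale, were 4.53 for Slc16a6, 1.84 for Steap1, 1.62 for Wisp2 and 1.39 for Txnip on the positive side. They were -2.14 for Gm10720, -1.53 for Gm10800 and -1.40 for Mme on the negative side. Slc16a6 was not well above background at 120 µM K, and 1 of 2 arrays was above the median of the negative controls at 60 µM K and at 60 µM G, so the size of its difference is not well measured. Gm10720 and Gm10800 are predicted genes, and both had an adjusted p of 0.0495. Each of the 7 calls was lost in 6 to 8 of the 8 fits that left out 1 array, with highest adjusted p values from 0.116 (Slc16a6 without 120 µM K replicate 1) to 0.223 (Gm10720 without 60 µM K replicate 2).

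Against the dose step of the mixture, the same test set apart 61 clusters, and the 6 largest differences in each direction were followed. They were 3.90 for Slc16a6, 2.24 for Ces2g, 2.08 for Lif, 2.05 for Myc, 2.01 for Dusp6 and 1.99 for Egr2 where G was higher. They were -2.85 for Gas2, -2.30 for Igfbp5, -2.08 for Ptn, -1.88 for Serpinb8, -1.82 for Itgbl1 and -1.81 for Pi15 where G was lower. Slc16a6 had 1 of 2 arrays above the median of the negative controls at either dose of the mixture, while Ces2g had 1 of 2 at the higher dose of the mixture and was not well above background at the lower, so neither size is well measured. Pi15 encodes a secreted protease inhibitor and had 11.56 and 11.90 at 120 µM G, against 13.19 and 13.25 at 60 µM G. These calls were lost in 5 to 8 of the 8 fits without 1 array, with highest adjusted p values from 0.0846 (Slc16a6, Lif, Egr2 and Gas2 without 120 µM mixture replicate 1) to 0.172 (Ces2g without 60 µM mixture replicate 2).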

How the results depend on the processing

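None of the 180 genes called in the dose step turned direction in any setting run. They were chosen as called on these arrays, which every setting used again, so a turn was unlikely from the start. The 348 rises and 438 falls became 671 and 689 over brighter clusters only, 609 and 718 with a trend in the prior, 93 and 190 at an adjusted p under 0.01, 38 and 80 with treat against a fold change of 1.3, 95 and 162 with only the 4 G arrays fitted, and 2161 and 1255 by a fold criterion (above 1.3 or below 0.7) without a test. Leaving out 1 array gave 99 to 178 rises and 229 to 250 falls. The 7 differences between G and K became 55 over brighter clusters, 102 over clusters above the 95th percentile of the negative controls on 2 arrays, 138 with the trend, 0 at 0.01, 2 with only their arrays and 0 to 36 without 1 array. The 61 between G and the mixture became 236, 315, 307, 0 and 8 in these settings, and 0 to 20 without 1 array. The 216 between the further and initial 60 µM became 686, 728, 744, 31 and 12, and 24 to 204 without 1 array. Against 0.05% DMSO, 1849 calls at 60 µM G became 734 at 0.01, 701 with only the arrays compared and 800 to 1100 without 1 array, and 3495 at 120 µM G became 2032, 2281 and 2241 to 2445. Centring each array gave 398 rises and 369 falls. Same-numbered arrays did not deviate together over all clusters (r of -0.136 to 0.142 over 28 pairs of groups, 0.0083 for the 2 G doses). Most clusters were dim, so this cannot settle whether arrays with the same number shared a culture or batch. A replicate block gave 327 rises and 425 falls, 7, 50 and 204 differences between steps, and 1808 and 3480 calls against 0.05% DMSO. With 2 arrays per dose, a median 95% interval of 0.402 limits what small changes could be seen, and 75 called genes lay near background at both doses.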

Other observations

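Stress-related lists that were not described above gave few calls. Of 44 NRF2 targets and redox genes 4 rose and 1 fell in the dose step, and Srxn1, sulfiredoxin, had 13.30 and 13.38 at 120 µM G, against 12.48 and 12.05 at 60 µM G (2.1-fold, adjusted p = 0.0025). Txnrd1 (log2 difference 0.65), Gsta3 (0.80), Taldo1 (0.69) and Gstt1 (-1.11) lost their calls without 1 array, with adjusted p of 0.121 and 0.136 for Txnrd1 without 60 µM G replicate 1 and Gsta3 without 60 µM G replicate 2, 0.19 for Taldo1 without 120 µM G replicate 2 and 0.079 for Gstt1 without 120 µM G replicate 1. At 60 µM G 14 of the 44 had risen against 0.05% DMSO, beside 3.84% of all clusters. Of 20 circadian clock genes 3 rose and none fell, and Nfil3, a repressor of the clock output, had 9.84 and 9.65 at 120 µM G, against 8.51 and 8.51 at 60 µM G (2.36-fold, adjusted p = 0.0023). Hlf was not well above background at either dose, and Ciart (0.95) had an adjusted p of 0.184 without 120 µM G replicate 1. Mest, an imprinted gene of the mesoderm, had 12.17 and 12.64 at 120 µM G, against 14.36 and 14.20 at 60 µM G (0.272-fold, adjusted p = 0.00012), and Slc24a3, a sodium, potassium and calcium exchanger, fell to 0.297-fold. Prkg1, the cyclic GMP-dependent kinase, had 7.54 and 7.84 at 120 µM G, against 9.23 and 9.55 at 60 µM G (0.309-fold, adjusted p = 0.00023), and Klf2, a zinc finger transcription factor, fell to 0.411-fold.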
